A study of Homo sapiens with 4 samples.

Results

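The BCL2 family decides whether a cell under stress keeps its mitochondrial outer membrane intact, and 10 of its genes were followed here by name in HepG2 cells given melatonin or DMSO. They were the prosurvival genes BCL2, BCL2L1 and MCL1, the pore-forming effectors BAX and BAK1, and the BH3-only genes BID, BCL2L11, BMF, BBC3 and PMAIP1. All 10 were found among the 58302 genes listed in each library, and 9 of them reached an FPKM of 1 in at least 1 library, as did 14612 genes in all. FPKM counts sequenced fragments per kilobase of a gene, adjusted for library size, which eases comparison between genes of unequal length. It rests on 1 deposited length per gene, and the lengths of the transcripts present were not examined.

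HepG2 is an established line grown from a human hepatocellular carcinoma, labelled wild type. Cells in MEM with serum, pyruvate and nonessential amino acids received 1 mM melatonin or its solvent DMSO, and polyadenylated RNA was sequenced after 24 h and after 48 h. The 4 groups, in the order used for every series of 4 values, are DMSO at 24 h, melatonin at 24 h, DMSO at 48 h and melatonin at 48 h. Each has 1 library. Without replicates the spread between cultures is unknown, and no test of treatment or time was made. The design asks how melatonin alters expression at each time. Deposited FPKM could be turned back into whole reads, and the 95% intervals given are exact Poisson intervals on those reads, or exact binomial intervals for a ratio of 2 libraries. They cover counting error only.

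Reads on genes numbered 21616676 to 23086025 per library. The share of these on mitochondrial genes was 19.96% in DMSO 24 h, 16.6% in melatonin 24 h, 9.77% in DMSO 48 h and 11.9% in melatonin 48 h. Hepatocyte markers were present, with 10 of 10 at an FPKM of 1 or more and a sum of 7422 to 9393 per library. Of the leukocyte markers 2 of 6 reached that level, CD14 and LYZ (LYZ with an FPKM up to 1069), while PTPRC had at most 1 read. None of 4 endothelial and 1 of 5 stromal markers did.

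In a living cell the prosurvival proteins bind and hold the effectors and the BH3-only proteins. BH3-only proteins carry a single BCL2 homology domain and are made or modified when growth signals, DNA or protein folding are disturbed. They occupy the prosurvival proteins or engage BAX and BAK1 directly, which then open the membrane, and the release of cytochrome c starts the caspases. Hepatocytes and many liver tumours lean on the proteins of BCL2L1 and MCL1. Much of this control acts on the proteins, by binding, cleavage and degradation, and mRNA levels do not show it.

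In these libraries prosurvival mRNA was mostly BCL2L1 and MCL1, and BCL2 itself was close to absent. At 24 h no family gene differed 2-fold between melatonin and DMSO. At 48 h BBC3 was 2-fold lower with melatonin, with BMF next to it. Both were at their highest in the DMSO 48 h library, 3.16-fold and 3.56-fold above DMSO 24 h, and the melatonin 48 h library stood between. BAK1 was higher and MCL1 lower with melatonin at both times, each by less than 1.5-fold.

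**Figure D1:**
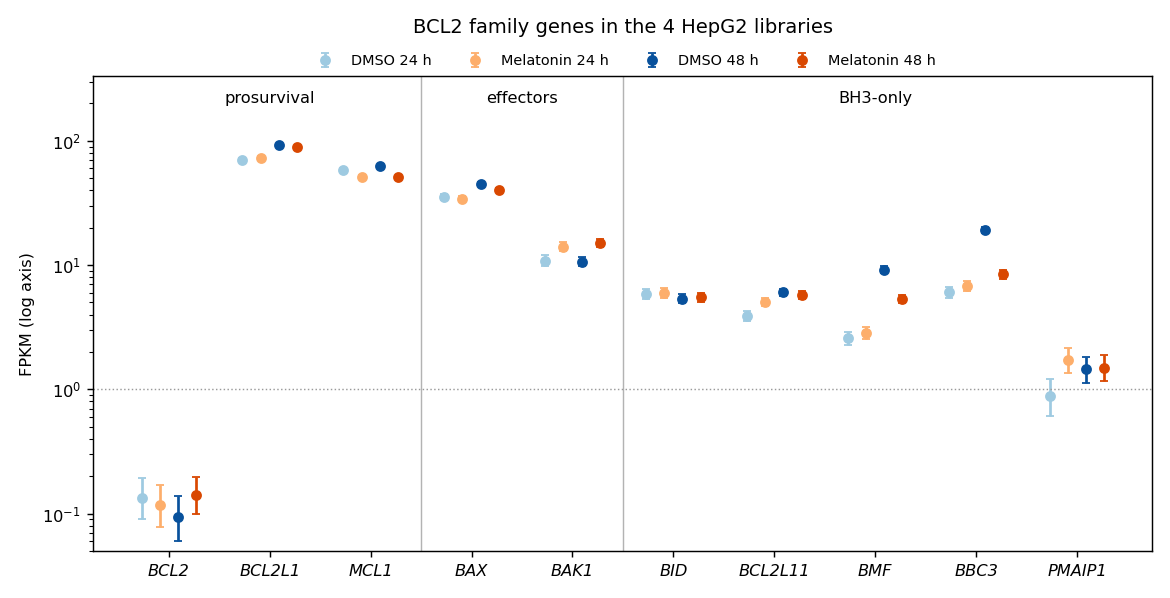
FPKM (log axis) of the 10 genes in the 4 libraries, grouped by role, with 95% exact Poisson intervals that cover counting error only; the dotted line marks an FPKM of 1. BCL2 lies near 0.1 in every library, and BBC3 and BMF stand out in DMSO 48 h at 19.1 and 9.19.

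The start regions of BBC3, BMF and BAK1 are shown because the first and second of these genes had the largest differences in the family and BAK1 had the same direction at both times. Each is the 300 bases from 250 before to 50 after a start site in RefSeq (GRCh38.p14), read 5′ to 3′ on the minus strand. The listed start site nearest the 5′ end of the gene was used, and it lay 99, 13 and 17 bases from that end. Any other start site of these genes is not described. They lie at chr19:47232618-47232917, chr15:40108830-40109129 and chr6:33580227-33580526. Capitals mark an E-box (CACGTG) in BBC3 and 1 repeat of a p53 site (p53 repeat) in BAK1.
BBC3: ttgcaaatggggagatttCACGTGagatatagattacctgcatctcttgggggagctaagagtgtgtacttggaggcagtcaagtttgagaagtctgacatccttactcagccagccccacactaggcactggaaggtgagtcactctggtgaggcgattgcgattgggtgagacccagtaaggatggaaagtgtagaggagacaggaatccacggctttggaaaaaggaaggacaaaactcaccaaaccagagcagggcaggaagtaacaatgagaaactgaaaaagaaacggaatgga
BMF: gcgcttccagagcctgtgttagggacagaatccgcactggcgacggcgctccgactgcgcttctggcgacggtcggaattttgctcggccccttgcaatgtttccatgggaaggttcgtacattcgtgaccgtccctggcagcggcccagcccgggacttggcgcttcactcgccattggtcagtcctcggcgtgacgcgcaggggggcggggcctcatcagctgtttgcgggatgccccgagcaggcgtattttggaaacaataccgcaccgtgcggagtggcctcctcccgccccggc
BAK1: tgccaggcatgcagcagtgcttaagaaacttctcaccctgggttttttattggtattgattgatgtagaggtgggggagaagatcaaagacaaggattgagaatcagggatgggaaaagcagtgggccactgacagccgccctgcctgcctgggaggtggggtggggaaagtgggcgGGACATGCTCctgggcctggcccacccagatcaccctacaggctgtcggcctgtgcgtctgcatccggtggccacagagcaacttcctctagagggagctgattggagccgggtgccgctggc

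BBC3 and BMF were both highest in DMSO 48 h, and their windows were unlike in base composition. The BBC3 window was 48.0% GC with 5 CpG, and the BMF window was 65.0% GC with 31 CpG. A window of this kind was found for 9 of the 10 genes, all but MCL1, and both strands were searched. It covers 1 start site per gene, and that of BCL2L11 lay 1536 bases from the 5′ end of the gene. The E-box, a site of MYC and related factors, was in BBC3 at 232 bases before the start and 4 times in BAX, and 7.23% of all 34943 windows hold it. TGATGNAA, the core of the element bound by ATF4 with its partners, was in 0 of 9 windows and in 3.62% of all.

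The forkhead site GTAAACA was in BCL2L11 (223 bases before the start; 3.42% of all windows) and the cyclic AMP response core TGACGT in PMAIP1 (56 bases before; 7.97%). The p53 repeat was in BAK1 (73 bases before; 6.64%), where its first base is the last of a GC box. The GC box GGGCGG was in 5 of 9 windows, namely BAX, BAK1, BCL2L11, BMF and PMAIP1, and in 44.9% of all. These matches are descriptions of letters and not of bound sites.

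BCL2 (ENSG00000171791, chr18:63123346-63320128 on hg38, minus strand) gives the family its name and holds BAX and BH3-only proteins in lymphocytes and neurons. Its FPKM was 0.13 in DMSO 24 h, 0.12 in melatonin 24 h, 0.09 in DMSO 48 h and 0.14 in melatonin 48 h, from 29, 28, 24 and 37 reads. These levels did not separate, and the gene stayed under the FPKM of 1 required for a fold change to be counted. The plain ratio of melatonin to DMSO was 0.874 (interval 0.501 to 1.52) at 24 h and 1.52 (0.887 to 2.66) at 48 h.

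BCL2L1 (ENSG00000171552, chr20:31664452-31723989, minus strand) encodes BCL-XL and, by splicing, the proapoptotic BCL-XS, which gene totals do not tell apart. It had the highest level per length of the 10 genes in every library. Its FPKM was 70.5 in DMSO 24 h, 72.9 in melatonin 24 h, 92.5 in DMSO 48 h and 88.8 in melatonin 48 h. The libraries of 48 h were above those of 24 h, whichever agent was given, and melatonin differed little from DMSO. The ratio was 1.03 (0.992 to 1.08) at 24 h and 0.960 (0.927 to 0.993) at 48 h. On the log2(FPKM + 1) scale the 48 h difference was -0.06, and it became 0.01 when mitochondrial genes were left out of the scaling.

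The antisense RNA ABALON lies within the BCL2L1 locus (chr20:31721507-31723409, plus strand). Whether counting used strand is not stated, so reads of the overlapping part cannot be assigned with certainty. ABALON had 291, 176, 533 and 273 reads in the 4 libraries, against 4289 to 6723 for BCL2L1. The melatonin to DMSO ratio of ABALON was 0.547 (0.451 to 0.662) at 24 h and 0.506 (0.436 to 0.586) at 48 h. A second antisense RNA there, AL117381.1, had 14 to 52 reads.

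MCL1 (ENSG00000143384, chr1:150574551-150579738, minus strand) encodes a short-lived prosurvival protein that binds BAK1 and most BH3-only proteins. Its FPKM was 58.5 in DMSO 24 h, 51.4 in melatonin 24 h, 62.6 in DMSO 48 h and 50.8 in melatonin 48 h. Both melatonin libraries were below both DMSO libraries, and the share of all genes in this order was not computed. The ratio was 0.879 (0.843 to 0.915) at 24 h and 0.811 (0.781 to 0.843) at 48 h. Of all genes tested, non-coding ones included, 24.7% were at least as far down at 24 h and 23.6% at 48 h. A difference of this size was thus common among them. After rescaling to TPM, which divides by the sum of all FPKM, the 24 h difference shrank from -0.18 to -0.01 on the log2 scale, while that at 48 h was -0.35.

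BAX (ENSG00000087088, chr19:48954815-48961798, plus strand) encodes the effector that waits in the cytosol. Its FPKM was 35.3 in DMSO 24 h, 34.2 in melatonin 24 h, 44.7 in DMSO 48 h and 40.4 in melatonin 48 h. As with BCL2L1, the 48 h libraries were the higher ones. The ratio of melatonin to DMSO was 0.967 (0.904 to 1.03) at 24 h and 0.905 (0.855 to 0.958) at 48 h, and on the log2 scale the 24 h difference of -0.05 turned to 0.12 with TPM. The BAX to BCL2L1 ratio of FPKM was 0.501 ± 0.014, 0.469 ± 0.013, 0.483 ± 0.011 and 0.456 ± 0.011 (counting SE) in the 4 libraries.

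BAK1 (ENSG00000030110, chr6:33572547-33580293, minus strand) encodes the effector that sits in the mitochondrial membrane. Its FPKM was 10.9 in DMSO 24 h, 14.1 in melatonin 24 h, 10.7 in DMSO 48 h and 14.98 in melatonin 48 h. Both melatonin libraries were above both DMSO libraries, and their intervals did not meet. The ratio was 1.29 (1.14 to 1.46) at 24 h and 1.40 (1.25 to 1.57) at 48 h. Among the 9 genes tested it was the 1 with an interval above 1 at both times. The relatives BCL2L12 and BCL2L13 also had this, as did pathway genes that were less than 1.5-fold apart. An interval above 1 was found for 28.2% of all genes tested at 24 h and 29.1% at 48 h. The share with it at both times was not computed. Among all genes tested 11.9% were as far up at 24 h and 13.2% at 48 h. Its pseudogene BAK1P1 had 3 to 12 reads and BAK1P2 had 0, against 442 to 736 for BAK1. BAX and BAK1 were not alike in this comparison, and their summed FPKM was 46.2, 48.2, 55.3 and 55.4 in the 4 libraries in the same order.

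BID (ENSG00000015475, chr22:17734138-17774770, minus strand) encodes the BH3-only protein that caspase-8 cleaves, and so joins the death receptors to the mitochondria. Its FPKM was 5.89 in DMSO 24 h, 5.98 in melatonin 24 h, 5.37 in DMSO 48 h and 5.51 in melatonin 48 h. The 4 values lay close together. The ratio interval held 1 at both times: 0.895 to 1.15 around 1.01 at 24 h, and 0.908 to 1.16 around 1.03 at 48 h. Of the 9 genes tested this was so for BID alone, and the share over all genes was not computed. Its neighbour BCL2L13, 3282 bases away, had an FPKM of 2.17, 2.56, 1.59 and 2.30 in the 4 libraries.

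BCL2L11 (ENSG00000153094, chr2:111119378-111168447, plus strand) encodes BIM, which binds every prosurvival protein and can engage BAX. Its FPKM was 3.87 in DMSO 24 h, 5.04 in melatonin 24 h, 6.06 in DMSO 48 h and 5.76 in melatonin 48 h. DMSO 24 h was the low library and the other 3 were nearer to each other. The ratio of melatonin to DMSO was 1.30 (1.16 to 1.47) at 24 h and 0.95 (0.863 to 1.04) at 48 h. Between the DMSO libraries the ratio of 48 h to 24 h was 1.57 (1.40 to 1.75), and between the melatonin libraries it was 1.14 (1.03 to 1.27).

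BMF (ENSG00000104081, chr15:40087890-40108892, minus strand) encodes a BH3-only protein held on the cytoskeleton and freed on loss of attachment. Its FPKM was 2.58 in DMSO 24 h, 2.86 in melatonin 24 h, 9.19 in DMSO 48 h and 5.35 in melatonin 48 h, from 258, 316, 1098 and 647 reads. Both 48 h libraries were above both 24 h libraries, and DMSO 48 h was the highest. The ratio of melatonin to DMSO was 1.11 (0.937 to 1.31) at 24 h and 0.582 (0.527 to 0.642) at 48 h. The ratio of 48 h to 24 h was 3.56 (3.11 to 4.10) between the DMSO libraries, while between the melatonin libraries it was 1.87 (1.63 to 2.15). At 48 h 7.49% of the genes tested were as far down with melatonin.

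BBC3 (ENSG00000105327, chr19:47220822-47232766, minus strand) encodes PUMA, a BH3-only protein known as a target of p53 that is also made under other stresses. Its FPKM was 6.05 in DMSO 24 h, 6.76 in melatonin 24 h, 19.1 in DMSO 48 h and 8.44 in melatonin 48 h, from 353, 436, 1331 and 596 reads. The DMSO 48 h library stood alone, and the other 3 spanned 6.05 to 8.44. The ratio of melatonin to DMSO was 1.12 (0.969 to 1.29) at 24 h and 0.442 (0.401 to 0.487) at 48 h. Over time the ratio was 3.16 (2.80 to 3.56) in DMSO, and in melatonin the ratio was 1.25 (1.10 to 1.42). On the log2(FPKM + 1) scale the 48 h difference was -1.09 and lay between -1.20 and -1.03 over all scalings tried. Of 13805 genes tested 360 (2.61%) were as far down.

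PMAIP1 (ENSG00000141682, chr18:59899948-59904306, plus strand) encodes NOXA, which binds MCL1 and hastens its breakdown. Its FPKM was 0.88 in DMSO 24 h, 1.72 in melatonin 24 h, 1.45 in DMSO 48 h and 1.49 in melatonin 48 h, from 36, 78, 71 and 74 reads. DMSO 24 h was the lowest library. The ratio of melatonin to DMSO was 1.96 (1.31 to 3.0) at 24 h, a wide interval that follows from few reads, and 1.03 (0.733 to 1.45) at 48 h. On the log2(FPKM + 1) scale, which compresses low genes, the 24 h difference was 0.54, reached or passed by 4.76% of genes tested.

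**Figure D2:**
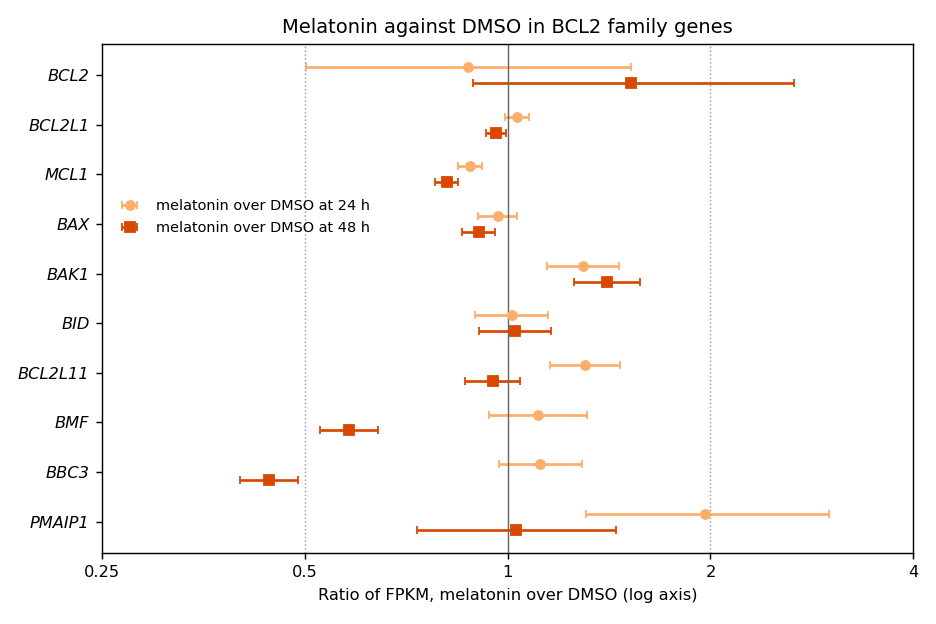
Ratio of FPKM, melatonin over DMSO (log axis), of the 10 genes at 24 h (circles) and 48 h (squares), with 95% exact binomial intervals that cover counting error only; dotted lines mark 2-fold. BAK1 lies right of 1 and MCL1 left of it at both times, and BBC3 and BMF lie left of it at 48 h alone with ratios of 0.442 and 0.582.

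The order of the levels per length was stable. BCL2L1, MCL1 and BAX held the first 3 places in that order in each library, with intervals that did not meet, and PMAIP1 and BCL2 held the last places. In the middle, BAK1 led BBC3 in 3 libraries, and in DMSO 48 h BBC3 was above BAK1. BBC3 and BID had overlapping intervals at 24 h with either agent. In melatonin 48 h BCL2L11, BID and BMF were within each other's counting error, with FPKM of 5.76, 5.51 and 5.35.

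At 24 h, melatonin against DMSO, 0 of the 9 genes tested were 2-fold apart, where 4.35% of all 13582 genes tested were, and 0.63% of the protein-coding ones. At 1.5-fold the count was also 0 of 9, against 11.6% of all. An interval above 1 was found for 3 of 9 genes (BAK1, BCL2L11 and PMAIP1; 28.2% of all genes tested) and an interval below 1 for 1 of 9 (MCL1; 22.4% of all). The median log2 difference of the 9 was 0.11, against 0.02 over all genes tested. The family's counts at 24 h were not far from those of other genes.

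At 48 h 1 of the 9 genes, BBC3, was 2-fold lower with melatonin, where 5.72% of all 13805 genes tested and 2.39% of the protein-coding ones were 2-fold apart in either direction. At 1.5-fold 2 of 9 were called, BBC3 and BMF, against 18.7% of all. The interval was above 1 for 1 of 9 (BAK1; 29.1% of all) and below 1 for 5 of 9 (BCL2L1, MCL1, BAX, BMF and BBC3; 33.1% of all). The median of the 9 was -0.06, against -0.02 over all genes tested. No library is shared between the 24 h and the 48 h comparison.

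**Figure D3:**
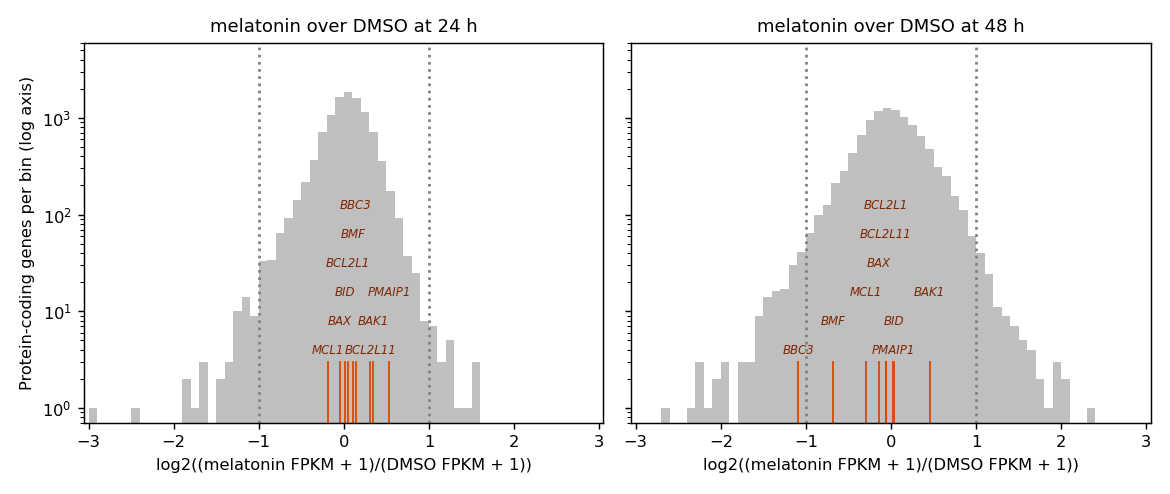
Number of tested protein-coding genes (log axis) by log2((melatonin FPKM + 1)/(DMSO FPKM + 1)) in bins of 0.1, at 24 h and 48 h, with values beyond 3 placed in the end bins; orange lines mark the 9 family genes tested and dotted lines 2-fold. All 9 lie within the bulk at 24 h, and at 48 h BBC3 at -1.09 alone lies past a dotted line.

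The libraries of the 2 times were also compared within each agent. These comparisons reuse the libraries above, so the values are only set side by side. With DMSO, 2 of 9 genes were 2-fold higher at 48 h than at 24 h, where 3.5% of 13854 genes were. These were BBC3 and BMF, each with a log2 difference of 1.51, and 0.801% and 0.823% of genes tested were as far up. The median of the 9 was 0.38, against 0.00 over all genes. With melatonin, 0 of 9 were 2-fold higher and 1 (BMF, 0.72) was 1.5-fold higher, against 6.76% of 13489 genes. The median of the 9 was 0.16, against -0.04 over all genes.

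The scaling weighs on the comparison of times. The mitochondrial share was 19.96% in DMSO 24 h and 9.77% in DMSO 48 h, and TPM lifted the median of all genes in that comparison from 0.00 to 0.46, in melatonin over time from -0.04 to 0.23, and in melatonin over DMSO at 24 h from 0.02 to 0.17. With TPM, BBC3 and BMF had log2 differences of 2.08 and 2.14 between the DMSO libraries, and BCL2L11 joined them at 1.06. With mitochondrial genes left out both were 1.51, as before. The small time differences of BAK1 and BID with DMSO, -0.03 and -0.11, changed sign with TPM to 0.46 and 0.35.

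Of the 10 genes, BBC3 set DMSO 48 h apart most. Its level there on the log2(FPKM + 1) scale was 1.09 above the next highest library, and 1.03% of 14612 genes stood at least 2-fold above each other library in this way. BMF was 0.68 above. For BCL2L1, MCL1, BAX and BCL2L11 the gap was 0.06 to 0.14, and BCL2, BAK1, BID and PMAIP1 were not highest in that library. Fewer cells that express a gene and less RNA of it per cell cannot be told apart in a bulk culture.

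Of the 10 genes, those of each role were added up as FPKM. The sums leave out other family genes of these roles, such as BCL2L2, BAD and BIK, and are not totals of a role. Prosurvival genes summed to 129 ± 1.4 in DMSO 24 h, 124 ± 1.3 in melatonin 24 h, 155 ± 1.4 in DMSO 48 h and 140 ± 1.3 in melatonin 48 h (counting SE). BH3-only genes summed to 19.3 ± 0.50, 22.4 ± 0.52, 41.2 ± 0.69 and 26.5 ± 0.54. The ratio of BH3-only to prosurvival mRNA was thus 0.149 ± 0.0042, 0.18 ± 0.0046, 0.265 ± 0.0050 and 0.190 ± 0.0042, highest in DMSO 48 h and, at 24 h, higher with melatonin than with DMSO. Without BBC3 it was 0.102, 0.125, 0.142 and 0.130, in the same order of libraries. BBC3 relative to BCL2L11 was 1.56 ± 0.11, 1.34 ± 0.082, 3.15 ± 0.14 and 1.47 ± 0.078. Sums of mRNA do not give the balance of the proteins.

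The rest of the family, 12 genes, was read in the same way. Among prosurvival relatives, BCL2L2 (BCL-W) had an FPKM of 16.6, 13.5, 25.9 and 21.0. Its ratio of melatonin to DMSO was 0.814 at both times (0.751 to 0.883, then 0.767 to 0.865), and it was higher at 48 h like BCL2L1. BCL2A1 had at most 1 read and BCL2L10 at most 3, which is the floor. The effector-like BOK had an FPKM of 35.7, 30.2, 37.9 and 28.4. It was lower with melatonin at both times by ratios of 0.844 (0.789 to 0.903) and 0.749 (0.703 to 0.798). With TPM the 24 h log2 difference shrank from -0.28 to -0.12 in BCL2L2 and from -0.24 to -0.07 in BOK. Those at 48 h did not shrink. The share of all genes lower at both times was not computed.

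Among the further BH3-only genes, BIK, like BBC3, was highest in DMSO 48 h. Its FPKM was 0.91, 0.47, 2.49 and 0.71 in the same order, from 16, 9, 52 and 15 reads, and the ratio at 48 h was 0.285 (0.149 to 0.514). Its level in DMSO 48 h was 0.87 above the next library on the log2(FPKM + 1) scale, less than for BBC3, while its plain fold over that library, 2.72, was more than the 2.26 of BBC3. These are few reads. BAD, whose protein is set by phosphorylation, had 5.20, 5.25, 5.02 and 4.32, and both ratio intervals held 1. HRK had 1 to 4 reads and BCL2L14 had 7 to 18.

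BCL2L12, a nuclear relative, had an FPKM of 12.8, 15.8, 9.92 and 11.6, with ratios of 1.24 (1.10 to 1.39) and 1.17 (1.03 to 1.32). BCL2L13, a mitophagy receptor, had ratios of 1.18 (1.01 to 1.38) and 1.45 (1.24 to 1.70). The hypoxia-induced BNIP3 had an FPKM of 36.8, 18.2, 12.3 and 13.2, so that DMSO 24 h was the high library, and it has pseudogenes that may share reads. BNIP3L had 14.9, 12.0, 8.05 and 8.04. The plain ratio of BNIP3 at 24 h was 0.494 (0.467 to 0.522), past 2-fold, and its difference of -0.98 on the log2(FPKM + 1) scale fell short of that threshold. Of these 12 genes 7 were tested at 24 h, with 0 past 2-fold on that scale (4.35% of all genes tested) and BNIP3 past 1.5-fold (11.6% of all). At 48 h 8 were tested, and BIK was 2-fold lower (5.72% of all), at -1.03, or -0.99 when libraries were scaled by their summed reads. BIK passed the minimum FPKM through DMSO 48 h alone, the library where it was high. Their medians were -0.24 and -0.09.

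Around the family, 49 genes of the apoptotic pathway in 6 lists were examined, of which 47 were tested at 24 h and 45 at 48 h. At 24 h 3 of 47 were 1.5-fold higher and 0 lower, where 11.6% of all genes tested were 1.5-fold apart, and at 48 h 3 of 45 were higher and 2 lower, where 18.7% were. These shares also serve as background for the counts in the single lists. Their medians were 0.03 and 0.04. The 10 genes of the apoptosome and the released factors held 1 of those differences at each time, HTRA2, a mitochondrial protease that inactivates inhibitors of apoptosis once released. HTRA2 had an FPKM of 11.4, 17.7, 9.66 and 15.3, and both melatonin libraries were above both DMSO libraries, with ratios of 1.55 (1.40 to 1.71) and 1.59 (1.43 to 1.75). That is the arrangement seen for BAK1.

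The 7 executioner genes, caspases and their substrates, had 0 past 1.5-fold at either time, with 1 interval above 1 and 1 below at 24 h, and 2 and 2 at 48 h. Of the 7 inhibitors of apoptosis 6 were tested at 24 h and 5 at 48 h. There BIRC5 (survivin), made mainly by dividing cells, had an FPKM of 42.6, 39.1, 14.6 and 24.5. It was low in DMSO 48 h, where BBC3 was high. Its ratio was 0.917 (0.872 to 0.965) at 24 h, a direction that turned with TPM, and 1.68 (1.56 to 1.80) at 48 h. Of the 10 genes of the death receptor arm, CFLAR, an inhibitor of caspase-8, was 1.5-fold lower at 48 h, with an FPKM of 3.59, 2.80, 5.19 and 2.99 and a 48 h ratio of 0.576 (0.540 to 0.614). The 7 genes that set the stability of these proteins, mostly ubiquitin ligases, had 0 of 6 tested past 1.5-fold at either time.

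The 8 transcription factors known to act on family genes held the remaining differences. DDIT3 (CHOP), a factor of the unfolded protein response, had an FPKM of 5.21, 5.72, 19.3 and 8.64, from 121, 147, 535 and 243 reads. Its 4 libraries stood in the order and nearly the proportions of BBC3, with a ratio of 1.10 (0.859 to 1.41) at 24 h and 0.449 (0.384 to 0.523) at 48 h, and a gap of 1.07 between DMSO 48 h and the next library. ATF4, which acts above DDIT3, had 104, 167, 240 and 179. It was higher with melatonin at 24 h, at 1.61 (1.55 to 1.67), and lower at 48 h, at 0.744 (0.725 to 0.764), and its gap in DMSO 48 h was 0.42. E2F1, a cell cycle factor that can also raise BH3-only genes, had 31.5, 50.2, 17.2 and 70.0, with ratios of 1.59 (1.49 to 1.70) and 4.07 (3.79 to 4.37). Whether these factors had a part in the levels of BBC3, BMF or BIK was not tested.

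**Figure D4:**
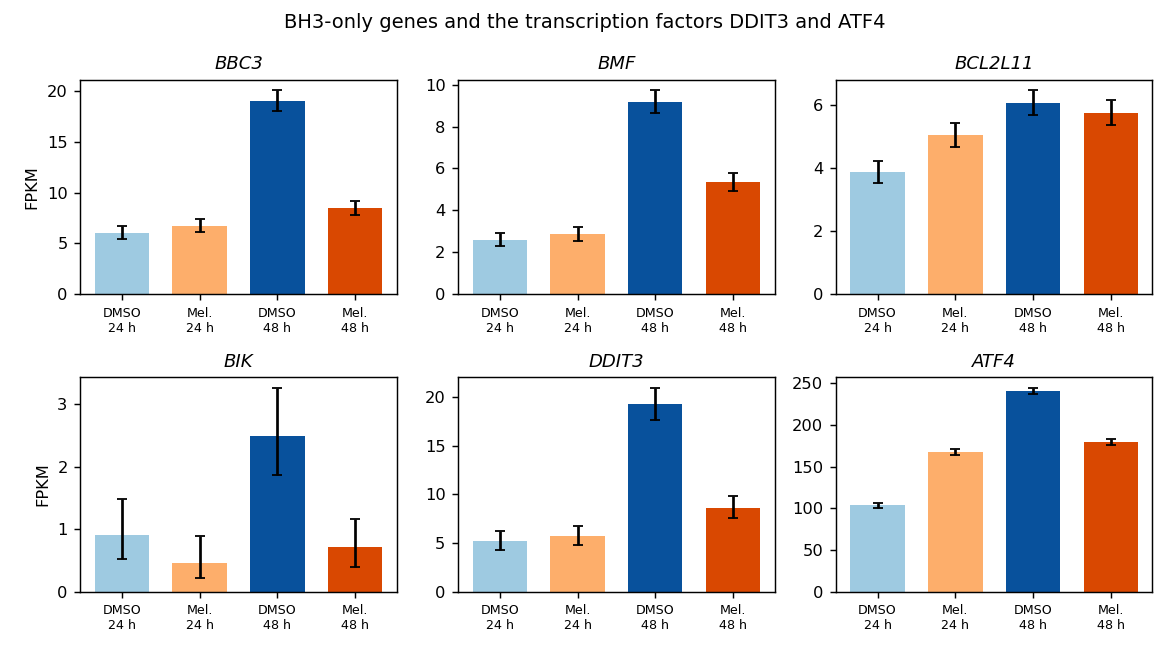
FPKM (axes from 0) of the BH3-only genes BBC3, BMF, BCL2L11 and BIK and of DDIT3 and ATF4 in the 4 libraries, 1 bar per library, with 95% exact Poisson intervals that cover counting error only. DMSO 48 h is the highest bar in each panel, but the panels are a choice of genes and not all of their lists. BID, PMAIP1 and BAD, not shown, were highest in melatonin 24 h, and E2F1, not shown, was lowest in DMSO 48 h. The plain fold over the next library was 2.26 in BBC3, 2.23 in DDIT3, 1.72 in BMF, 1.34 in ATF4 and 1.05 in BCL2L11. It was 2.72 in BIK, from 52 against 16 reads.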

How the data were processed

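Polyadenylated RNA from HepG2 cells was sequenced in 4 libraries, 1 for each agent and time. Per the methods, the authors aligned the read pairs with MapSplice to the hg38 genome and obtained expression with Cufflinks. The submitters' processing notes also list Bowtie2 2.0.6, TopHat2 2.0.9, Cufflinks 2.1.1 and Cuffdiff 2.1.1, and how these were combined is not given in the sources used here. The authors deposited FPKM per Ensembl gene, with each gene's length in bp as the other deposited value used. Multiplying FPKM by length gave whole multiples of 1 unit in each library for 100% of values above 0 (tolerance 0.01), and so the reads per gene. Cufflinks usually splits reads into fractions, and how whole reads arose is not given in the sources used here. The library size implied by these steps was 0.849, 0.888, 0.95 and 0.973 of the reads on genes in the 4 libraries. Its definition is not stated either, and every ratio between libraries depends on it. The floor of 3 reads is an FPKM of 0.135 to 0.163 for a gene of 1 kb.

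Differences are log2((a + 1)/(b + 1)) of FPKM, a scale that understates low genes. A gene was tested, here meaning counted against a 2-fold (or 1.5-fold) threshold, if its FPKM was 1 or more in 1 of the libraries compared. With 1 library per group there is no p-value. Shares over all genes tested include non-coding genes, while the 10 genes are protein-coding. At 2-fold the share over all genes was 4.35% at 24 h and 5.72% at 48 h. Among protein-coding genes it was 0.63% and 2.39%. Shares at 1.5-fold, and shares as far apart as a named gene, were not computed for protein-coding genes alone. They may be smaller there. The 10 genes and all lists (other family genes, the 6 pathway lists, cell markers) were chosen with earlier results of these data known. Named were all 10 genes, the other 12 family genes, and pathway genes 1.5-fold apart at 24 h or 48 h. The files call GSDME and MARCH5 by other names, and both were matched by gene ID. Gene coordinates are those of the files, and 7 of the 10 genes have the same start and end in GENCODE 44.

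Alternatives were a pseudocount of 0.1, no minimum FPKM, a minimum of 5, a 1.5-fold threshold, TPM, centring on the median, and leaving out mitochondrial genes. Scaling by the summed reads was added after seeing the data. Scripts were tested on simulated data and used Python 3.11, numpy 2.4.6, pandas 2.3.3, scipy 1.17.1 and matplotlib 3.10.9.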

Additional observations from a re-analysis of the deposited data

Results flagged for a closer look

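Among the named genes, BIRC5 and ATF4 stood out because melatonin and DMSO differed in opposite directions at the 2 times, with a counting interval off 1 at each. For BIRC5 the log2 difference was -0.12 at 24 h and 0.71 at 48 h, so the later one exceeded the earlier by 0.83. With TPM the 24 h difference of BIRC5 was 0.05, and the directions were then no longer opposite. For ATF4 it was 0.68 at 24 h and -0.42 at 48 h, a change of -1.11, and the directions were opposite under every scaling run. With 1 library per group the difference between times was not tested for either gene. None of the 10 family genes had counting intervals on opposite sides of 1 at 24 h and 48 h.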

How the results depend on the processing

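No paired analysis was possible because each group has 1 library and the labels carry no replicate numbers, and for the same reason no library could be left out. The counts of family genes past the threshold moved by over 1.5 times in 2 settings, a lower threshold and TPM. With a 1.5-fold threshold, which calls smaller differences by construction, 2 genes in place of 1 were called for melatonin over DMSO at 48 h, and 1 in place of 0 for 48 h over 24 h with melatonin. With TPM that last count was also 1 in place of 0 (BMF, 1.07), and the cause was not tested. The count for DMSO over time was 3 with TPM and 2 in every other setting. At 24 h the count of 0 was found in all settings run. The pseudocount, minimum FPKM, centring and mitochondrial settings moved no count of family genes by over 1.5 times, and neither did scaling by the summed reads. Over all genes, the 2-fold calls at 24 h were 193 higher and 398 lower, and with TPM 715 and 846. TPM also makes values larger, as FPKM summed to 337663 to 479234 per library, so the added 1 compresses low genes less. With a pseudocount of 0.1 on FPKM the 24 h calls were 375 and 833. How much of the rise with TPM came from library scaling was not tested. At 48 h they were 330 and 459, and with TPM 1103 and 1408. Between the DMSO libraries they were 485 higher and 587 lower, against 2947 and 704 with TPM and 609 and 376 with the summed reads. Between the melatonin libraries they were 330 and 230, against 1520 and 565 with TPM. Of the single-gene differences recomputed, 166 stayed within their counting error, 34 moved further (23 of them with TPM) and 0 that were called changed sign. Those called in the main setting, of BBC3 and BMF, were too far from 0 for this to be a check. Smaller differences did change sign under some scaling. These were BID in every comparison, BAX at 24 h, and BCL2L1 and PMAIP1 at 48 h. Over time they were BAK1 with DMSO, and MCL1 and PMAIP1 with melatonin. Reads limit PMAIP1, BIK and BCL2 most.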
